A study of Mus musculus with 2 samples.

Results

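The costimulatory receptors and ligands of T cells were followed across the immune cells of mouse lung: the TNF receptor family members Tnfrsf4, Tnfrsf9, Tnfrsf18 and Cd27, the immunoglobulin family receptors Icos and Cd28, and the ligands Tnfsf4, Tnfsf8, Tnfsf9 and Cd40lg. These 10 genes, of 55401 in the deposited matrix, were taken by symbol, and each symbol was counted in every cell type that could be gated by other marker genes. The study profiled live CD45+ lung cells, CD45 being the surface protein of white blood cells, by droplet-based 3′ single-cell RNA sequencing, 7 weeks after a first dose of urethane, a chemical that causes tumours of the lung. By the labels there was 1 Siah1a/2 KO sample and 1 WT sample, both from urethane-treated mice. Siah1a and Siah2 encode ubiquitin ligases. Strain, age, the number of mice per sample and the kind of KO allele are not given in the sources used here. The matrix holds 2 libraries, separated by the last digit of the cell barcode, and no label ties an ending to a genotype. They are called library 1 and library 2, no comparison of genotypes was made, and with 1 library of each kind no test was run.

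T cells need a signal through the antigen receptor and a costimulatory signal, which Cd28 receives from Cd80 and Cd86 on antigen-presenting cells. Icos and the TNF receptor family members, known as OX40 (Tnfrsf4), CD137 (Tnfrsf9), GITR (Tnfrsf18) and CD27, sustain activated cells, and the TNF receptors do so by recruiting TRAF adaptors that lead to NF-kB. Regulatory T cells, marked by the transcription factor Foxp3, are known for high OX40, GITR and Icos, also in tumour-bearing tissue.

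Library 1 held 8522 barcodes and 86227008 UMIs (unique molecule counts), and library 2 held 6479 barcodes and 59459790 UMIs. After filtering, 8066 and 6113 cells remained. Marker UMIs placed cells in 21 gates, of which 17 had at least 50 cells in each library, and none of the 10 genes was used in a gate. Of 66 further markers held back to check 15 of these gates, 61 were higher inside the gate than in all other cells in both libraries, and 55 at least 2 times. The exceptions included Eomes in CD8 T cells and Xcl1 in the Pdcd1+ Tcf7+ CD8 T cells. Levels are CPM, the gene's UMIs scaled to a common total of all UMIs in the gate, with exact 95% Poisson intervals. All intervals cover counting error only, since cells are not replicates of a library. Because 3′ counts of different genes are captured differently, levels are compared between cell types and not between genes. RNA set free by other cells was present: the complement genes C1qa, C1qb and C1qc together with Apoe, which mark macrophages, summed to 21321 CPM in C1q macrophages of library 1 and 21419 CPM in those of library 2, and still to 170.4 and 74.3 CPM in Pdcd1+ Havcr2+ CD8 T cells and to 177 and 62.8 CPM in NK cells. The part of free RNA in the results was not tested.

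Foxp3+ T cells carried the highest level of 5 of the 6 receptors in both libraries. The gate held 252 cells in library 1 and 162 in library 2, defined by Cd3 genes, a Foxp3 UMI and no Cd8 UMI. Cd4 was detected in 56.0% and 56.8% of them. All 5 regulatory T cell markers held back from the gate were higher there, with Il2ra at 395 and 556 CPM and Ctla4, the inhibitory receptor that competes with Cd28 for its ligands, at 1089 and 1133 CPM. They were set against Foxp3-zero CD4 T cells, 154 and 140 cells with Cd4 UMIs and no Foxp3 UMI. Of 10 macrophage transcripts counted beside them, 6 were measured in library 1, with 2 past 1.5 times upwards in Foxp3+ T cells and none downwards, and 3 in library 2, with 1 each way. The list summed to 1551 CPM in Foxp3+ T cells and 769.9 CPM in Foxp3-zero CD4 T cells of library 1, and to 2815 and 1011 CPM in library 2. Most of this was Cd74, the invariant chain of antigen presentation, with 955 and 337 CPM in library 1 and 2388 and 617 CPM in library 2, and Tyrobp, a signalling adaptor, had 381 and 184 CPM and 288 and 203 CPM. The macrophage genes C1qa, C1qb, C1qc and Apoe summed to less in Foxp3+ T cells, 194 against 227 CPM and 103 against 169 CPM. The part of these transcripts in the results was not tested. Of the 10 genes, 9 had at least 50 UMIs over both gates and were measured.

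Tnfrsf4, the receptor OX40, had 2926 CPM (2849 to 3005) in Foxp3+ T cells and 1139 CPM (1066 to 1216) in Foxp3-zero CD4 T cells of library 1, and 3042 CPM (2940 to 3147) and 1149.6 CPM (1074 to 1229) in those of library 2. The log2 ratio was 1.36 (1.26 to 1.46) in library 1 and 1.40 (1.30 to 1.51) in library 2. Both gates stood above every other gate in both libraries. Tnfrsf9, the receptor CD137, had 1037 CPM in Foxp3+ T cells and 316 CPM in Foxp3-zero CD4 T cells of library 1, and 1206 and 287 CPM in those of library 2. Its ratios, 1.71 (1.52 to 1.91) and 2.07 (1.86 to 2.28), were the highest of the 9 measured genes. Tnfrsf18, the receptor GITR, had 1481 CPM in Foxp3+ T cells and 774 CPM in Foxp3-zero CD4 T cells of library 1, and 1810.0 and 768 CPM in those of library 2, ratios of 0.94 and 1.24.

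Cd27, which binds Cd70, and Icos, which binds Icosl, were also higher in Foxp3+ T cells. Cd27 had 406 CPM there and 193 CPM in Foxp3-zero CD4 T cells of library 1, and 404 and 207 CPM in library 2, ratios of 1.07 and 0.96. Icos had 1187 CPM in Foxp3+ T cells and 647 CPM in Foxp3-zero CD4 T cells of library 1, and 1492 and 905 CPM in library 2, ratios of 0.87 and 0.72. Cd28 went the other way, with 385 CPM in Foxp3+ T cells and 648 CPM in Foxp3-zero CD4 T cells of library 1, and 475 and 689.7 CPM in library 2. Its ratios were -0.75 (-0.92 to -0.58) and -0.54 (-0.72 to -0.36).

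The ligands of activated helper cells were low in Foxp3+ T cells. Cd40lg, which binds Cd40 on B cells, dendritic cells and macrophages, had 12 UMIs or 6.50 CPM in Foxp3+ T cells and 66 UMIs or 83.7 CPM in Foxp3-zero CD4 T cells of library 1, and 7 and 66 UMIs, 6.33 and 87.7 CPM, in library 2. Tnfsf8, the ligand of Tnfrsf8, had 11.4 CPM in Foxp3+ T cells and 166 CPM in Foxp3-zero CD4 T cells of library 1, and 19.9 and 209 CPM in library 2. In library 2, 1 cell held 13 of the 22 Tnfsf8 UMIs of the Foxp3+ gate. The ratios were -3.64 and -3.70 for Cd40lg and -3.84 and -3.36 for Tnfsf8. The intervals of Tnfsf9 included 0 in both libraries.

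Of the 9 measured genes, 5 were at least 1.5 times higher in Foxp3+ T cells in each library, where 12.0% of 6006 measured genes were in library 1 and 15.4% of 4985 in library 2. In library 1, 3 genes were at least 1.5 times lower, against 8.92% of all genes. In library 2 it was 2, against 8.73%, Cd28 falling short of the fold. Cd40lg and Tnfsf8 had so few UMIs in Foxp3+ T cells that only Foxp3-zero CD4 T cells could bring them to 50 UMIs. Their calls were thus set by this minimum, and no conclusion was drawn from the shares of lower genes. The median log2 ratio of the 9 was 0.87 and 0.72, and that of all measured genes 0.03 and 0.10. The list of TRAF and NF-kB genes, the signalling step below the receptors, had a median of 0.07 and 0.09. Of its 20 genes 18 were measured in library 1, with none past the fold upwards and 2 downwards, and 19 in library 2, with 2 each way. Tnfaip3, which limits NF-kB signalling, was lower in Foxp3+ T cells in both libraries (233 against 496 CPM and 279.5 against 587 CPM). Nfkbia, the inhibitor of NF-kB, was higher, with 1715 against 1169.5 CPM and 2175 against 1449 CPM. Of other TNF family genes, 9 of 22 were measured. Tnfrsf1b and Tnfrsf13b, receptors of TNF and of BAFF and APRIL, were past the fold upwards in both libraries, and Tnf, Tnfsf11 and Fasl, all ligands, downwards in both.

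**Figure D1:**
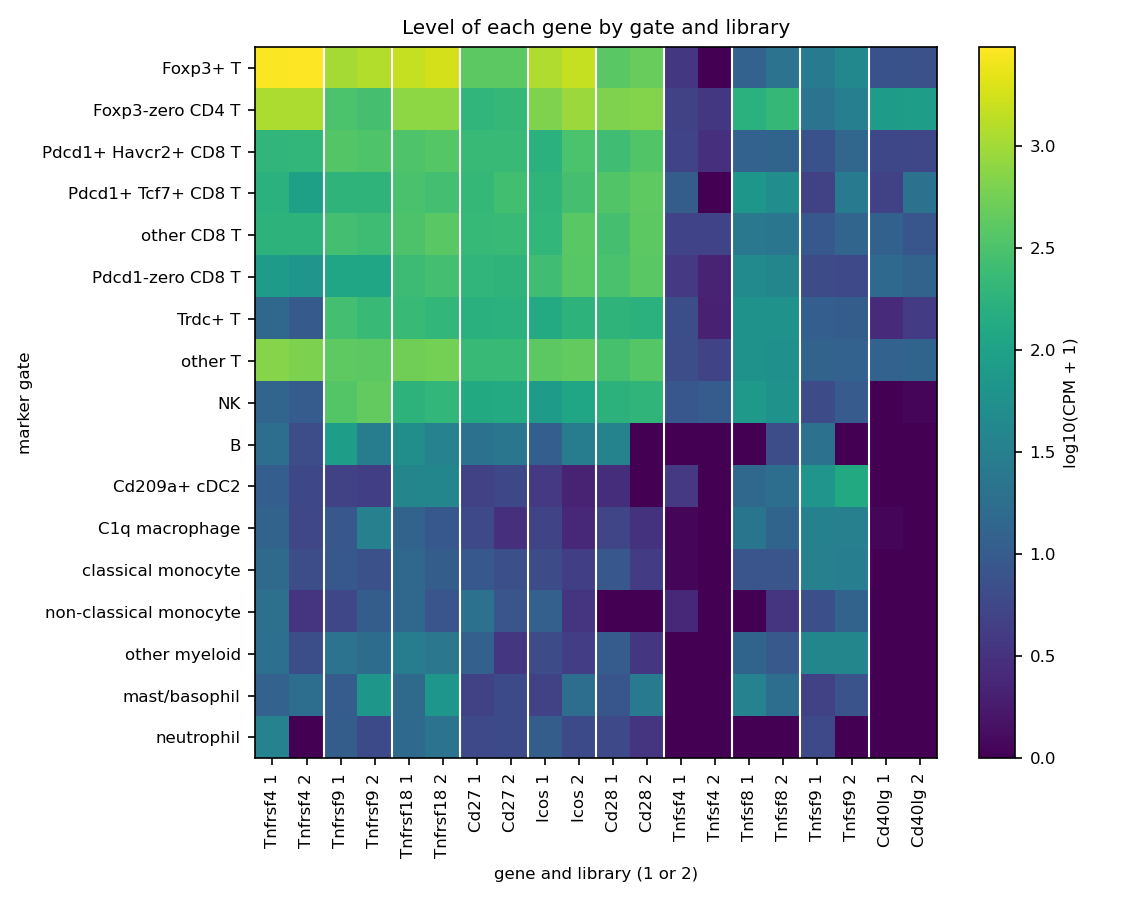
Level of the 10 genes, as log10(CPM + 1), in the 17 gates (rows) of library 1 and library 2 (paired columns). Foxp3+ T cells are brightest for 5 of the 6 receptors and Foxp3-zero CD4 T cells for Cd28, Tnfsf9 is brightest in cDC2, and Cd40lg is near 0 outside T cells.

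The Foxp3-zero CD4 T cells were themselves uneven. Ikzf2 encodes Helios, a transcription factor of regulatory T cells, and 71 of these cells in library 1 and 42 in library 2 had an Ikzf2 UMI, while 83 and 98 had none. Tnfrsf4 reached 1831 CPM (1699 to 1971) in the cells with Ikzf2 and 469 CPM (405 to 541) in those without in library 1, and 2645 and 552 CPM in library 2. Tnfrsf9 had 554 and 84.9 CPM in these subsets in library 1, and 661 and 138 CPM in library 2. Tnfrsf18 had 1039 and 517 CPM in library 1, and 1490.1 and 479.8 CPM in library 2. The median depth of the subsets was 4474 and 4141 UMIs in library 1, and 4937 and 4657 UMIs in library 2. Cd40lg was lower with Ikzf2, at 51.6 against 115 CPM and 41.9 against 106 CPM, and the intervals did not overlap in either library (31.5 to 79.6 against 84.1 to 153, and 19.2 to 79.6 against 80.3 to 137). Tnfsf8, low in Foxp3+ T cells, had 168 CPM with Ikzf2 and 165 CPM without in library 1. In library 2 it had 144 CPM (98.1 to 205) and 234 CPM (195 to 279), and the intervals overlapped in both libraries. Cd28 had 508 and 784 CPM in library 1, and 685 and 692 CPM in library 2. Il2ra, which encodes the high-affinity subunit of the interleukin receptor that regulatory T cells depend on, had 224 and 9.99 CPM in library 1, and 298 and 31.6 CPM in library 2. With Foxp3+ T cells set against the Ikzf2-zero cells alone, the log2 ratios of Tnfrsf4 were 2.64 and 2.46 and those of Tnfrsf9 3.59 and 3.12. Whether cells with Ikzf2 and no Foxp3 UMI are regulatory T cells in which Foxp3 was missed was not tested.

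**Figure D2:**
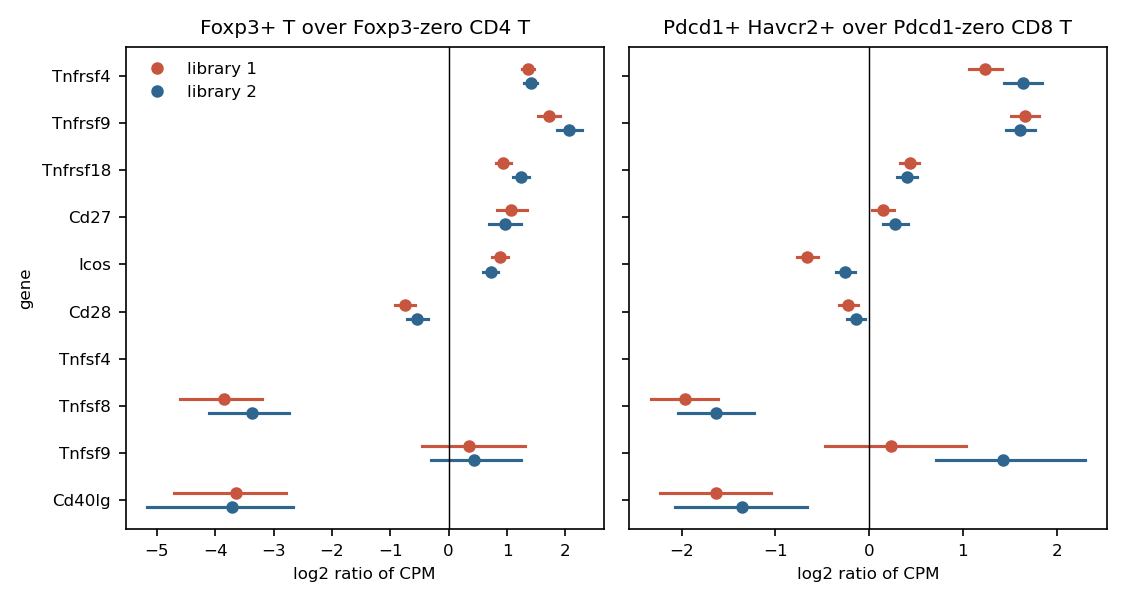
Log2 ratio of CPM for each gene, Foxp3+ over Foxp3-zero CD4 T cells (left) and Pdcd1+ Havcr2+ over Pdcd1-zero CD8 T cells (right), points with exact 95% intervals, in library 1 and library 2. Tnfsf4 had under 50 UMIs in these comparisons and is not drawn, Cd28 lies left of 0 in both panels, and Icos lies right of 0 on the left and left of 0 on the right.

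Most Foxp3+ T cells held several receptors at once. With each cell thinned to 3000 UMIs, so that depth was equal, Foxp3+ T cells had on average 4.92 of the 6 receptors in library 1 and 5.13 in library 2. At least 4 receptors were detected in 91.2% (86.7 to 94.5, Clopper-Pearson) and 95.04% (90.04 to 98.0) of them. In Foxp3-zero CD4 T cells these shares were 53.0% and 52.1%, in Pdcd1+ Havcr2+ CD8 T cells 31.5% and 40.8%, in Pdcd1-zero CD8 T cells 12.6% and 16.2%, and in NK cells 6.88% and 8.55%. In C1q macrophages, which should lack most of these genes, 0 of 678 and 0 of 386 cells had 4 or more. Tnfrsf4 alone was found in 95.2% and 94.3% of thinned Foxp3+ T cells (96.0% and 97.5% unthinned, median depth 5693 and 5645 UMIs) and in 3.10% and 1.81% of thinned macrophages (13.4% and 5.57% unthinned, median depth 11437 and 11436 UMIs). Among Foxp3-zero CD4 T cells with a Tnfrsf9 UMI, 37 of 42 in library 1 and 40 of 42 in library 2 also had Tnfrsf4, against 42 of 75 and 49 of 79 of those without Tnfrsf9. The gap was not the same for every pair. Of 15 receptor pairs, 1 receptor was found more often with the other than without it for 15 and 11 pairs in Foxp3-zero CD4 T cells, 13 and 13 in Foxp3+ T cells, 11 and 13 in Pdcd1+ Havcr2+ and 10 and 13 in Pdcd1-zero CD8 T cells. In Pdcd1+ Havcr2+ cells of library 1 Icos was found in 36.0% of cells with Tnfrsf4 and 36.3% of those without, and in Pdcd1-zero cells of library 1 Cd28 in 41.5% of cells with Tnfrsf9 and 56.4% of those without. Detection of 1 gene also follows a cell's efficiency of capture, and its part in these shares was not tested.

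**Figure D3:**
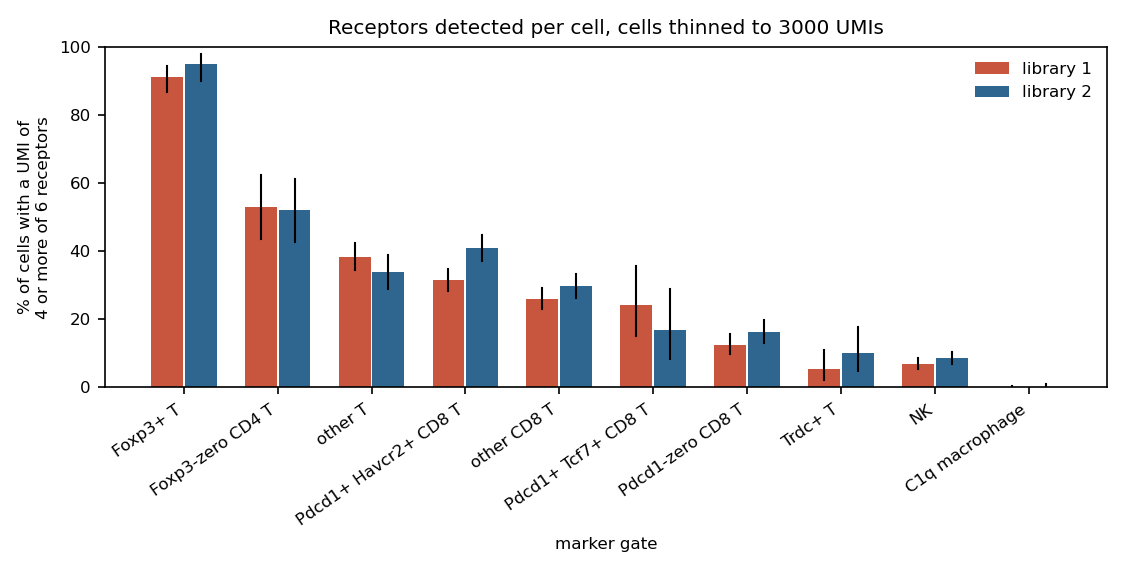
Percent of cells with a UMI of 4 or more of the 6 receptors after thinning to 3000 UMIs, bars with exact 95% intervals, by gate and library. The bars run from 91.2% and 95.04% in Foxp3+ T cells to 0% in C1q macrophages.

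Tnfrsf4 and Tnfrsf18 are neighbours in the genome, and promoters of these genes and of Tnfrsf9, also on chromosome 4, are shown. The 3 receptors shared their highest gate, which was also that of Cd27 and Icos. In GRCm38 (GENCODE M21) Tnfrsf4 lies on chromosome 4 from 156013843 to 156016612 and Tnfrsf18 from 156026164 to 156028895, both on the plus strand, 9551 bases apart with no protein-coding gene between them. Tnfrsf9 lies on the same strand of chromosome 4, from 150914562 to 150946102. RefSeq promoters (GRCm38.p6, 250 bases before to 50 bases after a transcription start) were matched for 5 of the 10 genes, namely Tnfrsf4, Tnfrsf9, Tnfrsf18, Cd27 and Tnfsf8. They were searched on both strands for the NF-kB patterns of GGGA and CC parted by any 4 or any 3 bases, which can overlap, the AP-1 pattern TGANTCA, the forkhead pattern GTAAACA and TATAAA. Capitals mark the matches in chr4:150927749-150928048 (Tnfrsf9, the downstream of its 2 starts), chr4:156026072-156026371 (Tnfrsf18) and chr4:156013445-156013744 (Tnfrsf4), all on the plus strand.

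Tnfrsf9: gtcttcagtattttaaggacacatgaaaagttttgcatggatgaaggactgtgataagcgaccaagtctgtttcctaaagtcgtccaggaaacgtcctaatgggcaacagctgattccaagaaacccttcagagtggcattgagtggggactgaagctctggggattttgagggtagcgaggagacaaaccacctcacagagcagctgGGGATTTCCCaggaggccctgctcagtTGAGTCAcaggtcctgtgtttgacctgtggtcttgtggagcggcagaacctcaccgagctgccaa

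Tnfrsf18: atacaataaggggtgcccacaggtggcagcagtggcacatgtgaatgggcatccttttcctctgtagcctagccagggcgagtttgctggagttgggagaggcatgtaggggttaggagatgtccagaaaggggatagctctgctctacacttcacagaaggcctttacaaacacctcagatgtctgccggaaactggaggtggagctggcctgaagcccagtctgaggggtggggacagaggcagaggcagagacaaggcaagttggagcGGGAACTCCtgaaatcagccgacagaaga

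Tnfrsf4: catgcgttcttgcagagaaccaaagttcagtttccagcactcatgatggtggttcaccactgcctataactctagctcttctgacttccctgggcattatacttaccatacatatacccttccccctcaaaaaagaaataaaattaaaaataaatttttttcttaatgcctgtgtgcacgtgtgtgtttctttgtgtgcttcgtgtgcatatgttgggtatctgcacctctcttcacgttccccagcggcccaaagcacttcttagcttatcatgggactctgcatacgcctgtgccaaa

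The promoter at the downstream Tnfrsf9 start held GGGATTTCCC at position -42 from that start, where the shorter pattern also matched on either strand, and TGAGTCA at -15. The Tnfrsf18 promoter held GGGAACTCC at 21, and none of the patterns matched in the Tnfrsf4 window. None matched in the window of the upstream Tnfrsf9 start, nor in those of Cd27 and Tnfsf8, which are not shown. Of 32851 promoters of the same length, 20.7% held the longer NF-kB pattern, 18.6% the shorter, 7.81% TGANTCA, 3.65% GTAAACA and 13.6% TATAAA, so the matches are a description of the letters and not of binding.

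In CD8 T cells the receptors split into groups. Pdcd1+ Havcr2+ CD8 T cells were 796 and 681 cells with UMIs of the inhibitory receptors PD-1 and TIM-3. They were set against Pdcd1-zero CD8 T cells, 586 and 536 cells with no UMI of either gene. Median depth was 9729 and 8259 UMIs in the Pdcd1+ Havcr2+ gate, and 6052 and 6054.5 UMIs in the Pdcd1-zero gate. Whether Pdcd1 or Havcr2 was missed in some Pdcd1-zero cells was not tested. Tnfrsf9 had 350.1 CPM (338 to 362) in the Pdcd1+ Havcr2+ cells and 111 CPM (100.6 to 122) in the Pdcd1-zero cells of library 1, and 336 and 109.8 CPM in library 2. Tnfrsf4 had 193 and 81.7 CPM in library 1, and 199.9 and 64.2 CPM in library 2. The log2 ratios were 1.66 and 1.61 for Tnfrsf9 and 1.24 and 1.64 for Tnfrsf4. Tnfrsf18 differed less, at 332 against 246 CPM and 363 against 274 CPM, ratios of 0.43 and 0.41, and Cd27 had ratios of 0.15 and 0.28.

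Icos was lower in the Pdcd1+ Havcr2+ cells, and Cd28 by a small margin. Both differences were smaller without cycling cells, which were also deeper than the other cells. Icos had 166 CPM there and 262 CPM in Pdcd1-zero cells of library 1, and 314 and 375 CPM in library 2, ratios of -0.66 (-0.77 to -0.54) and -0.26 (-0.35 to -0.16). Cd28 had 257 CPM in Pdcd1+ Havcr2+ cells and 299.6 CPM in Pdcd1-zero cells of library 1, and 348 and 384 CPM in library 2, ratios of -0.22 and -0.14. Cycling cells, with 2 or more UMIs of Mki67 and Top2a, made up 250 of the 796 and 146 of the 681 Pdcd1+ Havcr2+ cells, but 71 of 586 and 52 of 536 Pdcd1-zero cells. Within the Pdcd1+ Havcr2+ gate Icos had 109 CPM in cycling and 216 CPM in other cells of library 1, and 179.6 and 390.0 CPM in library 2. Cd28 had 195 and 312 CPM in library 1, and 256 and 400.3 CPM in library 2. Tnfrsf9 differed little, with 330.3 and 368 CPM in library 1 and 363 and 321 CPM in library 2. Without cycling cells the Icos ratio was -0.38 in library 1 and -0.01 in library 2. For Cd28, cells that were not cycling had 312 CPM in the Pdcd1+ Havcr2+ gate and 319 CPM in the Pdcd1-zero gate of library 1, and 400.3 and 403 CPM in library 2. Over the alternatives its ratio came as near to 0 as -0.03 and -0.0044. Cycling cells had a median of 16896 and 15025 UMIs in the gate, and other cells 8460 and 7590.

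The ligands Tnfsf8 and Cd40lg were lower in the Pdcd1+ Havcr2+ cells as well. Tnfsf8 had 11.4 CPM there and 44.7 CPM in Pdcd1-zero cells of library 1, and 12.4 and 38.3 CPM in library 2, ratios of -1.97 and -1.63. The small gate of Pdcd1+ Tcf7+ CD8 T cells without Havcr2, 75 and 59 cells with the transcription factor of long-lived T cells, had 68.2 CPM (51.5 to 88.6) and 49.4 CPM (32.2 to 72.3) of Tnfsf8. Its Tnfrsf9 level, 185 and 184 CPM, lay between the other CD8 gates. Cd40lg ratios were -1.63 and -1.36. Of 9 measured genes, 2 were at least 1.5 times higher in Pdcd1+ Havcr2+ cells of library 1, against 11.8% of all measured genes, and 3 were lower, against 11.5%. In library 2 it was 3 higher, against 10.7%, and 2 lower, against 8.95%. The minimum of UMIs over both gates limited some of these calls, so no conclusion was drawn from the shares. Tnfsf9, with 17 UMIs in Pdcd1-zero cells of library 2, could not have come out lower. Cd40lg, with 32 UMIs in Pdcd1+ Havcr2+ cells of library 2, could not have come out higher. The ratio of Tnfsf9 was 0.24 (-0.47 to 1.03) in library 1 and 1.43 (0.71 to 2.31) in library 2, from 61 and 22 UMIs and from 92 and 17 UMIs. Of 20 TRAF and NF-kB genes, all measured, 3 were higher and 1 lower in each library. Those higher were Bcl2a1b, Bcl2a1d and Traf5, of which the first 2 are near-identical anti-apoptotic copies whose reads cannot be told apart with certainty. The lower one was Map3k14, the kinase NIK, at 13.4 against 29.5 CPM and 17.96 against 35.8 CPM.

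NK cells, 1056 and 1002 cells with Ncr1 or Klrb1c and at most 1 Cd3 UMI, had Tnfrsf9 with little Tnfrsf4. Tnfrsf9 had 351 CPM (340.4 to 362) in NK cells of library 1 and 446 CPM (433 to 459) in those of library 2, log2 ratios of 1.66 and 2.02 over Pdcd1-zero CD8 T cells. Tnfrsf4 had 12.6 CPM (10.6 to 14.8) in NK cells and 11.9 CPM (9.71 to 14.4) in macrophages of library 1, and 9.19 CPM (7.41 to 11.3) and 4.53 CPM (2.84 to 6.87) in library 2, so that the intervals overlapped in library 1 and not in library 2. Its share of thinned NK cells was 4.46% and 2.06%. Cd28 had 169.9 and 187 CPM in NK cells, and Trac, the constant chain of the T cell receptor, 19.05 and 20.6 CPM against 863 and 922 CPM in Pdcd1+ Havcr2+ CD8 T cells. Cd27, which divides mouse NK cells into maturation stages, had 129 and 132 CPM, and Icos 79.6 and 109.9 CPM. Tnfsf8 was higher in NK cells than in Pdcd1-zero CD8 T cells, with 74.2 against 44.7 CPM and 61.1 against 38.3 CPM. Cd40lg had 0 UMIs in 11602206 of library 1, which allows up to 0.259 CPM, and 1 UMI in library 2. Of the 10 genes measured in library 1, 3 were at least 1.5 times higher in NK cells than in Pdcd1-zero CD8 T cells, against 10.0% of all genes, and 5 were lower, against 11.7%. Of 9 in library 2, 4 were higher, against 11.8%, and 3 lower, against 12.1%. The minimum of 50 UMIs over both gates set some of these calls, so no conclusion was drawn from the shares. Cd40lg, with 0 UMIs in NK cells of library 1 and 59 in Pdcd1-zero CD8 T cells, could only be lower. Tnfsf4, with 93 UMIs in NK cells and 4 in Pdcd1-zero CD8 T cells of library 2, could only be higher. In library 1 Tnfsf4 had 92 and 11 UMIs and could not have come out lower. In cycling NK cells, 150 and 135 cells, Cd27 had 92.5 and 92.2 CPM, against 140.3 and 144 CPM in the other NK cells. Trdc+ T cells, 135 and 99 cells, were like NK cells in having Tnfrsf9 (274 and 223 CPM) with little Tnfrsf4 (13.4 and 8.56 CPM). Of 8 genes measured in library 1, 1 was past the fold upwards in Trdc+ T cells over Pdcd1-zero CD8 T cells, against 6.44% of all genes, and 4 downwards, against 8.35%. Of 7 in library 2 it was 2, against 9.20%, and 3, against 9.05%. Cd40lg, with 2 UMIs in Trdc+ T cells and 59 in Pdcd1-zero CD8 T cells of library 1, could again only be lower. Tnfrsf4, with 8 UMIs in Trdc+ T cells and 228 in Pdcd1-zero CD8 T cells of library 2, could not have come out higher. No conclusion was drawn from the shares in Trdc+ T cells.

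**Figure D4:**
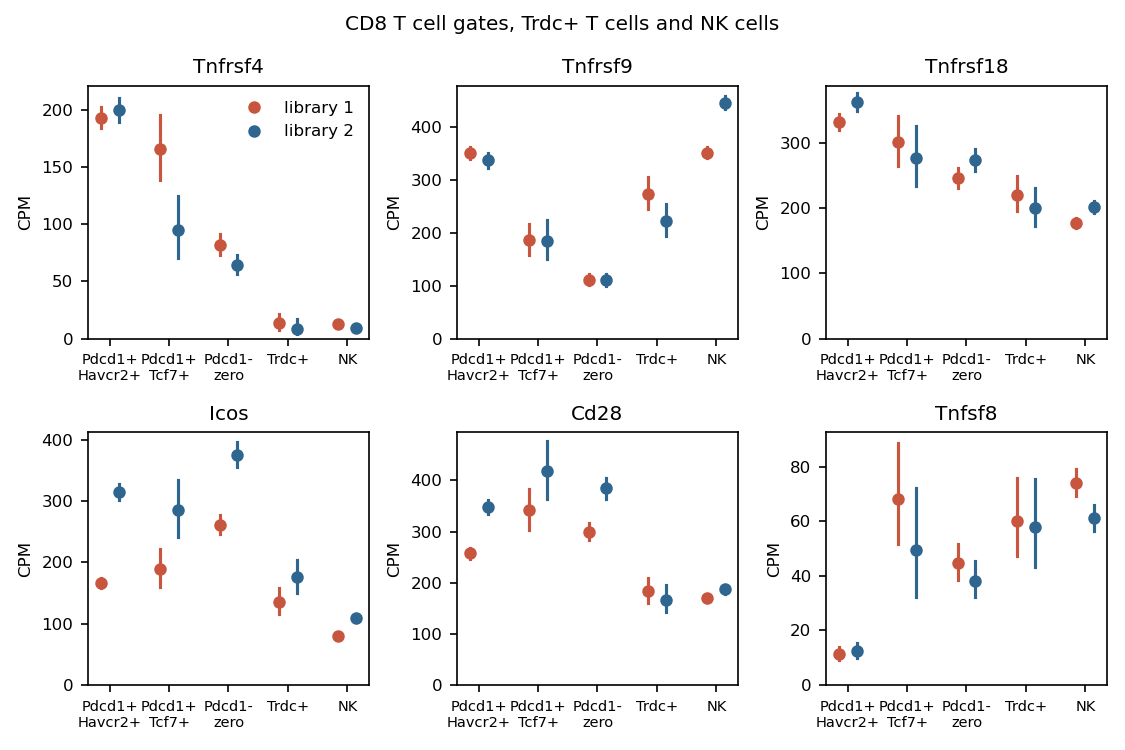
CPM of 6 genes, points with exact 95% Poisson intervals, in 3 CD8 T cell gates, Trdc+ T cells and NK cells, library 1 and library 2. Tnfrsf9 is high in Pdcd1+ Havcr2+ CD8 T cells and NK cells (336 to 446 CPM), Tnfrsf4 is near 10 CPM in NK cells, and Icos is lower in library 1 in each of the 5 gates.

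The order of gates was much alike in both libraries. The highest gate was the same for 9 of the 10 genes: Foxp3+ T cells for Tnfrsf4, Tnfrsf9, Tnfrsf18, Cd27 and Icos, Foxp3-zero CD4 T cells for Cd28, Tnfsf8 and Cd40lg, and cDC2 for Tnfsf9. With at least 2 UMIs asked of each deciding marker, Pdcd1+ Tcf7+ CD8 T cells were highest for Cd27 in library 2. Behind Foxp3+ T cells, the intervals of Cd27 overlapped between neighbouring T cell gates in both libraries, while gates further apart in the order were distinct. In library 1 other T cells had 232 CPM (220.0 to 243) and Trdc+ T cells 159.8 CPM (138 to 184), and in library 2 Pdcd1+ Tcf7+ CD8 T cells had 272 CPM (229 to 319.9) and Trdc+ T cells 168 CPM (143 to 196). For Cd28 in library 2 neighbouring gates from Foxp3+ T cells to Pdcd1+ Havcr2+ CD8 T cells overlapped, and these ends of the chain, 475 CPM (435 to 517) and 348 CPM (334 to 362), did not. For Tnfrsf9, NK cells and Pdcd1+ Havcr2+ CD8 T cells did not differ beyond their intervals in library 1, while in library 2 NK cells were above.

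Over the 34 gate and library points, with 5848 genes compared on log2(CPM + 1), 3 genes were named for each gene by the likeness of their pattern. For Tnfrsf4 these were Ikzf4 (r = 0.93), Neb and Izumo1r (0.91 each), for Tnfrsf9 Il2rb (0.94), Ndfip1 and Gzmb (0.93 each), and for Tnfrsf18 Ndfip1 (0.97), Icos (0.96) and Ctla4 (0.95). For Cd27 they were Lck (0.98), Icos and Camk4 (0.96 each), for Icos Ctla4 (0.97), Cd27 and Tnfrsf18 (0.96 each), and for Cd28 Cd247, Trbc2 and Thy1 (0.96 each). Cd40lg was most like Cd6 (0.91), Bcl11b and Cd5 (0.90 each), while Tnfsf8 reached 0.82 with Tomm20 and Tnfsf9 0.82 with Hax1. The points share their libraries and the division into T and other cells, so these values are a description.

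The TNF family ligands of the receptors were sparse on antigen-presenting cells. Tnfsf9, the ligand of CD137, was highest among the 17 gates in Cd209a+ cDC2, with 71 UMIs or 65.5 CPM (51.2 to 82.7) in library 1 and 111 UMIs or 129 CPM (106 to 155) in library 2. C1q macrophages had 33.2 and 31.5 CPM and classical monocytes 31.7 and 29.4 CPM. Tnfsf4, the ligand of OX40, had at most 9.75 CPM in the 17 gates. Migratory dendritic cells, gated on Ccr7 and Fscn1, were just below the minimum, with 56 and 49 cells. They had 91.2 CPM (70.9 to 115) and 71.2 CPM (52.5 to 94.4) of Tnfsf9, above cDC2 in library 1 and below it in library 2. Migratory dendritic cells had 29 and 31 Tnfsf4 UMIs, 38.3 CPM (25.7 to 55.0) and 46.0 CPM (31.2 to 65.3), above every gate of the minimum size. Cd70, the ligand of Cd27, had 66.1 and 77.1 CPM in them, against at most 19.03 and 17.3 CPM elsewhere. They also had the highest Cd80, 210.1 and 197 CPM, and Cd40, 375 and 239 CPM. Cd86, which binds Cd28 as Cd80 does, had 424 and 323 CPM in migratory dendritic cells. It was found in 50 of 56 and 40 of 49 of them. Icosl had 64.3 and 56.2 CPM in B cells and 58.1 and 44.5 CPM in migratory dendritic cells, and Tnfsf18, the ligand of GITR, had at most 1 UMI in any gate.

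Migratory dendritic cells also carried receptors. Tnfrsf4 had 140 UMIs or 185 CPM in those of library 1 and 243 UMIs or 360.4 CPM in those of library 2, against 10.2 and 4.64 CPM in cDC2. In library 2, 1 cell held 62 of the 243 UMIs. Tnfrsf9 had 127 and 203 CPM in migratory dendritic cells, against 3.69 and 3.48 CPM in cDC2, and it was found in 32 of 56 and 38 of 49 cells. Tnfrsf18 had 181 and 160.2 CPM, against 37.8 and 38.3 CPM. Cd3e had 1 UMI in each library and Trac 7.93 and 10.4 CPM in these cells, and Cd28 had 5 UMIs and 0 UMIs. All 3 receptors were past the fold in both libraries among 4 genes measured, where 20.8% and 23.8% of all genes were higher. Tnfrsf4 and Tnfrsf9 were so low in cDC2 that only migratory dendritic cells could bring them to the minimum of 50 UMIs. Their calls were thus set by this minimum, and no conclusion was drawn from the shares of higher genes. The Tnfsf9 ratio was 0.48 (-0.02 to 0.98) in library 1 and -0.85 (-1.37 to -0.35) in library 2, opposite in sign. It was past the fold downwards in library 2, where 31.8% of all genes were lower, and no gene of the 4 was in library 1, where 36.0% were.

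**Figure D5:**
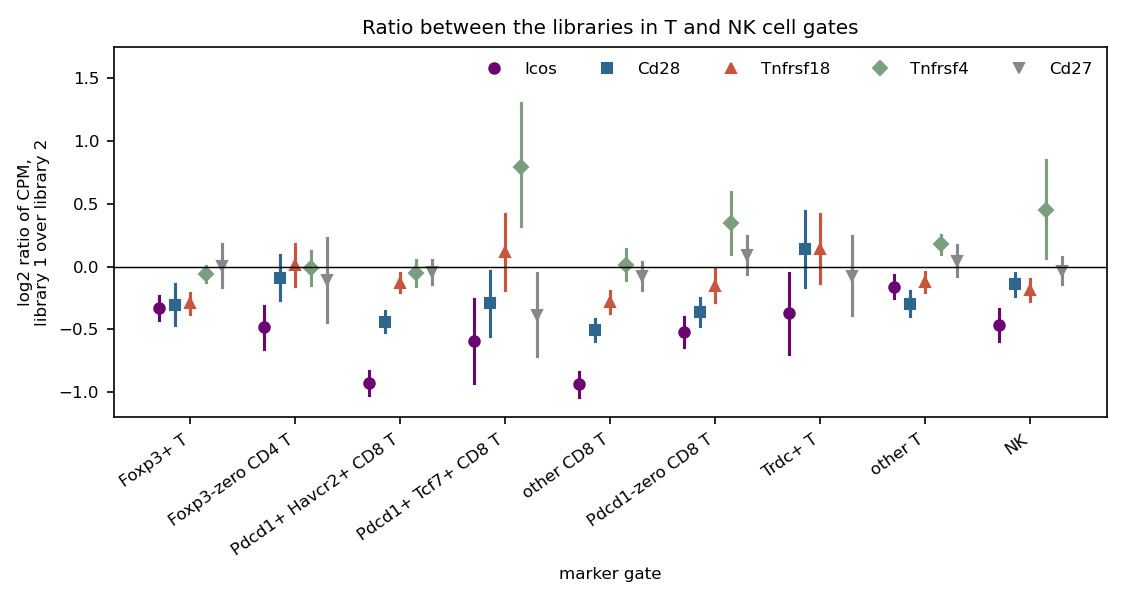
Log2 ratio of CPM, library 1 over library 2, for 5 receptors in 9 T and NK cell gates, points with exact 95% intervals. Every Icos point lies below 0, from -0.94 to -0.16, while Cd27 lies near 0 except in the Pdcd1+ Tcf7+ CD8 T cells.

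Between the libraries Icos was lower in library 1 in all 9 T and NK cell gates, with log2 ratios of -0.92 (-1.02 to -0.83) in Pdcd1+ Havcr2+ CD8 T cells, -0.94 in the other CD8 T cells, -0.59 in Pdcd1+ Tcf7+ cells, -0.52 in Pdcd1-zero cells, -0.48 in Foxp3-zero CD4 T cells, -0.46 in NK cells, -0.37 in Trdc+ T cells, -0.33 in Foxp3+ T cells and -0.16 in other T cells. Under the alternatives run, the ratio in Pdcd1+ Havcr2+ CD8 T cells stayed between -0.94 and -0.82. Thinned to equal depth, 36.2% of these cells in library 1 and 53.6% in library 2 had an Icos UMI. Cd28 was lower in library 1 in 8 of the 9 gates, with -0.44 in Pdcd1+ Havcr2+, -0.51 in other and -0.36 in Pdcd1-zero CD8 T cells, and 0.14 in Trdc+ T cells. Ctla4 lies between Cd28 and Icos on chromosome 1, 113640 bases from Cd28 and 62094 bases from Icos, with no other protein-coding gene in the gaps. Its ratio was -0.79 in Pdcd1+ Havcr2+ and -0.91 in Pdcd1-zero CD8 T cells and -0.81 in NK cells, but -0.06 (-0.16 to 0.05) in Foxp3+ T cells.

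Most other receptor levels were close. Tnfrsf4 had ratios of -0.06 in Foxp3+ T cells and -0.05 in Pdcd1+ Havcr2+ CD8 T cells, and Cd27 of 0.01 and -0.04. Tnfrsf18 had -0.29 in Foxp3+ T cells and -0.13 in Pdcd1+ Havcr2+ cells, and Tnfrsf9 -0.22 in Foxp3+ T cells and -0.34 in NK cells. Past 1.5 times in Pdcd1+ Havcr2+ CD8 T cells, 2 of the 10 genes were lower in library 1, against 4.31% of 10046 genes. These were Icos and Tnfsf9. Tnfsf4, with 38 and 14 UMIs, was higher, 1 of 10 against 2.92%. With 14 UMIs in library 2, Tnfsf4 could reach the minimum of UMIs only by being higher in library 1. Its call was thus set by this minimum, and no conclusion was drawn from the share of higher genes. In Foxp3+ T cells 1 of 7, Tnfsf9, was lower, against 5.28%, and none higher, against 4.23%. In NK cells 1 of 9, again Tnfsf9, was lower, against 2.57%, and none higher, against 3.01%.

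In the other CD8 T cells Icos and Tnfsf9 were lower, 2 of 9 against 3.11%, and none higher, against 3.85%. In Pdcd1+ Tcf7+ CD8 T cells Icos was lower, 1 of 7 against 7.20%, and Tnfrsf4 higher (0.79), 1 of 7 against 5.96%. None of the 8 genes measured in Foxp3-zero CD4 T cells was past the fold, where 4.57% of all genes were higher and 4.24% lower, nor any of 8 in Pdcd1-zero CD8 T cells (3.03% and 3.31%), 6 in Trdc+ T cells (2.82% and 6.34%), 10 in other T cells (3.11% and 3.64%) or 3 in other myeloid cells (4.84% and 6.61%). In cDC2 Tnfsf9 was lower in library 1 (-0.97), 1 of 2 against 4.94%, and none was higher, against 5.56%. In classical monocytes Tnfrsf4, Cd28 and Icos were higher in library 1, 3 of 8 against 3.50%, and none lower, against 2.61%. These were 104, 53 and 36 UMIs in library 1 and 27, 15 and 16 in library 2, and the interval of Icos included 0. Cd28, with 15 UMIs in library 2, could reach the minimum of UMIs only by being higher in library 1. Icos, with 16 UMIs in library 2, could not have come out lower. No conclusion was drawn from the shares in classical monocytes. Summed levels of 15 immediate early genes, which respond to handling, were lower in library 1 in all 9 T and NK cell gates, with 3827 and 4430 CPM in Pdcd1+ Havcr2+ CD8 T cells and 4117 and 4723 CPM in NK cells. They were also lower in library 1 in C1q macrophages (6821 and 7327 CPM) and, by far more, in mast cells (7720 and 20001 CPM). They were higher in library 1 in classical monocytes (10149 and 9281 CPM), cDC2 (8955 and 8404 CPM), B cells, neutrophils, non-classical monocytes and other myeloid cells. The sum of C1qa, C1qb, C1qc and Apoe was higher in library 1 in all 9 T and NK cell gates and lower there in B cells (589 and 618 CPM), mast cells (340.1 and 1183 CPM), neutrophils (532 and 1292 CPM) and both monocyte gates. Their part in the library differences was not tested, and genotype and library cannot be told apart.

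C1q macrophages differed between the libraries in Tnfrsf9. They had 69 UMIs or 7.88 CPM (6.13 to 9.98) in 700 cells of library 1 and 155 UMIs or 31.9 CPM (27.1 to 37.4) in 395 cells of library 2, a log2 ratio of -2.01. In library 2, 12 cells with 5 or more UMIs held 109 of the 155, and no cell of library 1 had more than 3. These 12 cells, chosen after their values were seen, had 1599 UMIs of C1qa, C1qb and C1qc, 2 of Cd3 genes, 1 of Trac and 0 of Ncr1. Tnfrsf4, Cd27 and Tnfsf8 were past the fold in the other direction in this gate (1.36, 1.20 and 0.81), 3 of 6 measured genes against 4.52% of all genes, and 1 of 6 was lower, against 3.09%. The levels of these 3 were low, at 11.9 and 4.53 CPM for Tnfrsf4 and 21.8 and 12.4 CPM for Tnfsf8. Cd27 had 4.91 CPM (3.55 to 6.62) in library 1 and 2.06 CPM (0.988 to 3.79) in library 2. With 10 UMIs in library 2, Cd27 could reach the minimum of UMIs only by being higher in library 1. Tnfrsf4, with 22 UMIs in library 2, could not have come out lower. No conclusion was drawn from the shares in C1q macrophages. Trac in the same gate had 8.45 and 4.33 CPM. The part of stray T cell transcripts in these differences was not tested.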

How the data were processed

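The 10 genes and the lists were chosen with earlier results of these data known. UMI counts per gene and barcode were deposited unnormalised by the authors, made with Cell Ranger 6.1.2 on mm10, per the submitters' processing notes. Barcode and gene tables were deposited beside them. Barcodes under 500 genes or above 10% of UMIs from the mitochondrion, 456 and 366, were removed. Median depth of kept cells was 8661 and 7875 UMIs, and 11 barcode sequences occurred in both libraries.

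Gates used marker UMIs: at least 2 of Cd3 genes and at most 4 of myeloid genes for T cells, 3 of B cell genes for B cells, and 10 of C1q genes for macrophages. Lyz2 was near 0 in these data, so its requirement was dropped from the monocyte gate after the values were seen. The Ikzf2 and macrophage Tnfrsf9 subsets were also looked at after the values were seen. No doublet caller was run. Barcodes with Cd3 UMIs and 5 or more myeloid UMIs, or other lineage markers, were set apart (850 and 492), and 471 and 314 cells met no gate.

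Counts were summed per gate and library and divided by the gate total (CPM). Ratios used a pseudocount of 0.5 UMI, at least 50 UMIs in both sums together, exact conditional binomial intervals and a 1.5-fold call. Shares have exact Clopper-Pearson intervals. No p-value was computed, because each kind of sample had 1 library. Cells were also thinned to 3000 UMIs, which left out 567 and 456 shallower cells. A count of 0 allows up to 3 counts. Ratios were also computed on simulated data with known answers. All 10 genes are named. Beyond them the rule named list genes with at least 50 UMIs and the 3 highest or lowest library ratios, and the 3 genes most like each of the 10. List genes named between gates, such as Tnfaip3, Nfkbia, Traf5 and Map3k14, were chosen after their values were seen. Alternatives were stricter gates, other filters, other denominators, thinning, TMM scaling (edgeR 4.0.16) and leaving out cycling cells. Python 3.11.15, scipy 1.17.1 and R 4.3.3 were used.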

Additional observations from a re-analysis of the deposited data

Results flagged for a closer look

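The 10 genes were also counted in barcodes outside the gates, which no comparison above used. In barcodes with T cell UMIs together with markers of another lineage they summed to 1259 CPM in library 1 and 1513 CPM in library 2. In cells that met no gate they summed to 513 CPM in library 1 and 450.0 CPM in library 2. In C1q macrophages the same sum was 100.5 CPM in library 1 and 94.4 CPM in library 2.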

How the results depend on the processing

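No paired analysis was possible because each kind of sample had 1 library and no test was run. Of the values that answer a comparison, 312 stayed within their intervals or within 1.5 times of a count, and the other 67 follow, library 1 before library 2. Against Foxp3-zero CD4 T cells without Ikzf2, ratios of Foxp3+ T cells were 2.64 and 2.46 for Tnfrsf4, 3.59 and 3.12 for Tnfrsf9, 1.52 and 1.91 for Tnfrsf18, 1.97 and 1.67 for Cd27, 1.16 and 0.89 for Icos, and -1.03 for Cd28 in library 1. With at least 2 UMIs of each deciding marker they were 1.47 and 1.58 for Tnfrsf4, 1.98 and 2.36 for Tnfrsf9, 1.48 and 1.61 for Cd27, and 1.16 and 0.90 for Icos, and the CD8 ratios were 1.98 and 1.99 for Tnfrsf9, -0.92 and -0.40 for Icos, and 1.87 for Tnfrsf4 in library 2. With thinned cells Foxp3+ ratios were 1.49 and 1.55 for Tnfrsf4 and 1.98 and 2.31 for Tnfrsf9, 1.42 for Tnfrsf18 and 1.29 for Cd27 in library 2, and 1.89 for Tnfrsf9 in CD8 T cells of library 1. With at most 1 myeloid UMI they were 1.62 for Tnfrsf4, 1.95 for Tnfrsf9, 1.15 for Tnfrsf18 and 1.02 for Icos in library 1, and the library ratio of Icos in Pdcd1+ Havcr2+ cells was -0.82. Without cycling cells CD8 ratios were 1.58 and 1.88 for Tnfrsf4, 1.82 for Tnfrsf9 in library 1, and -0.38 and -0.0063 for Icos. Without ribosomal and mitochondrial genes Tnfrsf4 was 1.29 in library 2. The library ratio of Tnfsf9 in Foxp3+ T cells, -0.65, turned to 0.0267 with thinned cells, to 0.0263 with at most 1 myeloid UMI, and to 0.46 without cycling cells.

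Counts of genes past 1.5 times fell with thinned cells, where fewer UMIs are measured: 458 higher and 258 lower in Foxp3+ T cells of library 1, 461 and 276 in library 2, 632 lower in Pdcd1+ Havcr2+ cells of library 1, and 632 higher and 499 lower in library 2. Between libraries they were 143 higher and 189 lower in Foxp3+ T cells, and 117, 148, 200 and 221 higher in Foxp3-zero CD4, Pdcd1-zero CD8, NK and macrophage gates. With 20 UMIs in place of 50, where more genes are measured, higher and lower counts were 639 and 823 in Foxp3+, 692 and 586 in Foxp3-zero CD4, 588 and 738 in Pdcd1+ Havcr2+, 625 and 595 in Pdcd1-zero, 578 and 571 in NK and 772 and 560 in macrophage gates. The cause of the other changes was not tested. With 1 library of each kind no difference has a replicate check.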
